A study of Mus musculus with 6 samples.

Results

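Endothelial to mesenchymal transition genes were followed in bEnd.3 cells, a mouse brain endothelial cell line, that overexpressed the microRNA miR-423-5p from a synthetic mimic or were given a control mimic. The genes are the 10 rows of the deposited gene table named Snai1, Snai2, Twist1, Zeb1, Zeb2, Acta2, Vim, Mmp2, Cdh2 and Fn1, out of 30768 rows in all. The first 5 encode transcription factors and the other 5 encode effectors, the proteins by which mesenchymal cells are recognised. Polyadenylated RNA was sequenced in 3 libraries of the miR-423-5p group and 3 of the control group. Both groups are the same line, and the labels give no dose, no time after the mimic and no separate cultures, so the p-values measure the spread between libraries, which may be technical. The comparison asks how overexpression of miR-423-5p changes endothelial gene expression.

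In this transition an endothelial cell loses its junction and vessel genes and takes on the shape, matrix and contractile proteins of a mesenchymal cell. Ligands of the TGF-beta family are its classical inducers. Factors of the SNAI, TWIST and ZEB families bind E-box sequences in DNA, and SNAI and ZEB proteins repress genes of cell junctions there. The effectors named here are smooth muscle actin (Acta2), the intermediate filament protein vimentin (Vim), the gelatinase MMP2 (Mmp2), N-cadherin (Cdh2) and the matrix protein fibronectin (Fn1). Vimentin and fibronectin are also normal products of cultured endothelial cells, and N-cadherin is present in endothelial cells beside VE-cadherin.

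A microRNA pairs through its seed, bases 2 to 8 from the 5′ end, with messenger RNAs. The mature mouse miR-423-5p is shown with its seed in capitals, followed by matches in the 3′ UTRs of the SNAI genes, with the matched bases in capitals. Snai2 is shown as the only 1 of the 5 transcription factors that passed the threshold used below. Snai1 is shown as its paralog and did not pass that threshold. The microRNA is from RefSeq (GRCm38.p6, chr11:77078122-77078144, minus strand) and the sites are from the GENCODE M21 transcripts of GRCm38, both on the plus strand, at chr16:14709162-14709190 for Snai2 and chr2:167542263-167542291 for Snai1.
mmu-miR-423-5p: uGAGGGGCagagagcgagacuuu
Snai2, match to the whole seed: agtaatacaatGCCCCTCcaagtgcctgt
Snai1, match to seed bases 2 to 7 and an A after it: agagcctcctaCCCCTCAgtattcatgag

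The Snai2 match begins at base 877 of a 3′ UTR of 1089 bases, and the Snai1 match at base 191 of 731. Both are 7-base matches. Zeb1 also has a 7-base match of the second kind, and no gene of the 10 has the 8-base match GCCCCTCA. Matches of 7 or 8 bases were thus present in 3 of the 10 genes, against 19.9% of 13840 tested genes with a 3′ UTR. Another 5 genes, Twist1, Zeb2, Acta2, Mmp2 and Fn1, have the 6-base match CCCCTC alone, and Vim and Cdh2 have none in the longest annotated 3′ UTR. A 6-base match outside a longer match was present in 25.9% of the 13840 genes, alone or beside a longer one. Snai1 has such a match as well. A match is a description of the letters and does not show pairing in the cells. The mimic itself is too short to be counted in these libraries, and the row of its gene, Mir423, held at most 2 reads in any library, so the overexpression could not be checked from them.

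Total counts ran from 63217696 to 78456344 per library. Control library 3 stood apart from the other controls on the second principal component, at -56.3 against 43.3 and 39.9, and it held transcripts of other cell types. The macrophage gene Csf1r was at 21.8 CPM there and at most 1.61 CPM elsewhere, and the neuronal gene Tubb3 at 24.5 CPM and at most 0.554 CPM elsewhere. CPM is the count scaled to the library size after TMM adjustment. Library 3 of each group held the skeletal muscle actin gene Acta1, at 47.6 FPKM in miR-423-5p library 3 and 49.4 FPKM in control library 3, with at most 0.472 FPKM in the other 4. FPKM also divides by gene length, so it was used wherever levels of different genes are compared. The part of these transcripts in the results was not tested.

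All 10 genes passed the filter on low counts. With edgeR's quasi-likelihood test across 18103 genes, at an adjusted p under 0.05, Vim rose and Snai2, Acta2, Mmp2 and Fn1 fell in miR-423-5p cells. That is 1 of 10 genes higher and 4 of 10 lower, where 9.09% of all tested genes were called higher and 7.21% lower. Of the transcription factors 1 of 5 was called, and of the effectors 4 of 5, where 16.3% of all tested genes were called in either direction. The median log2 fold change was -0.44 over the transcription factors, -0.57 over the effectors and -0.02 over all tested genes. Libraries of the groups did not overlap in CPM for 9 of the 10 genes, 6 lower and 3 higher, where this held for 38.4% of all tested genes, 19.6% lower and 18.8% higher. The genes were chosen with earlier results of these libraries known, so these counts describe the list only. Scaled to total counts instead, 1 of the 10 rose and 5 fell, the added gene being Cdh2; that scaling gives 874 genes higher and 2569 lower over the whole table, in place of 1646 and 1305, and moves the median of all genes to -0.18.

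**Figure D1:**
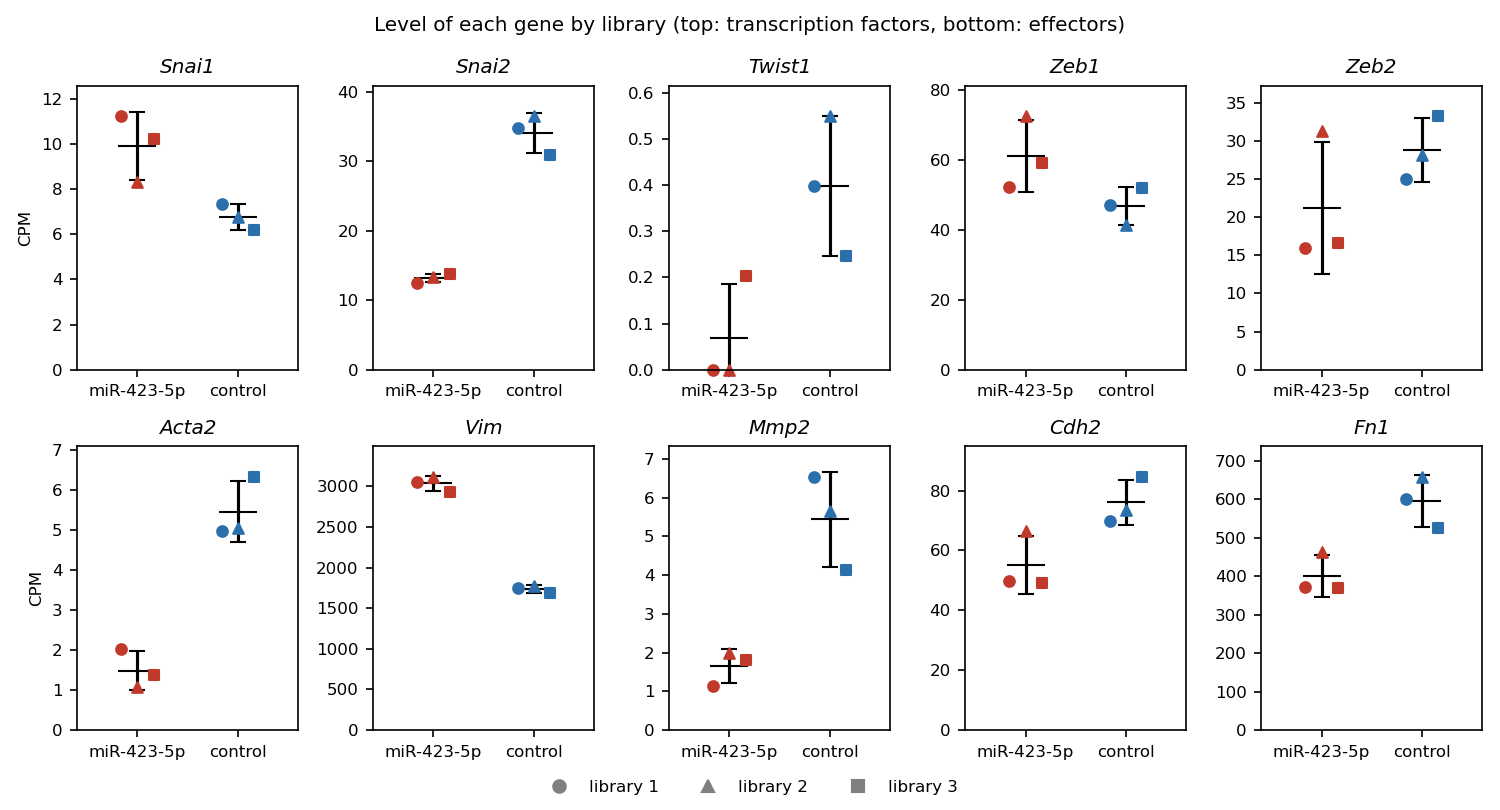
CPM of each gene in each library, miR-423-5p on the left and control on the right, with transcription factors above and effectors below; symbols mark the library number, and the bar with whiskers is the mean ± SD (n = 3). The groups are apart in all panels but Zeb2, where miR-423-5p library 2 (31.2 CPM) lies among the controls.

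On the FPKM scale the 10 genes spanned a wide range. Vim was the highest in both groups, at 559 ± 39.4 FPKM in miR-423-5p cells and 362 ± 6.34 FPKM in control cells (SD, n = 3 each). Fn1 came next, at 30.0 ± 5.17 FPKM in miR-423-5p cells and 50.3 ± 4.71 FPKM in control cells. In control cells the order below them was Snai2, Cdh2, Zeb1, Snai1, Acta2, Mmp2, Zeb2 and Twist1. Only Zeb1 and Snai1, and Mmp2 and Zeb2, overlapped with their neighbour in that order. In miR-423-5p cells Cdh2, Snai2, Snai1 and Zeb1 had means between 5.21 and 5.99 FPKM, and each overlapped with the next. Zeb2, Acta2 and Mmp2 followed at 0.924, 0.586 and 0.423 FPKM, again with overlap, and Twist1 was last in both groups.

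Snai2, on chromosome 16 from 14705852 to 14709385, encodes the zinc finger repressor known as Slug. Its level was 12.5, 13.3 and 13.8 CPM in miR-423-5p libraries 1, 2 and 3, against 34.8, 36.4 and 30.9 CPM in control libraries 1, 2 and 3. Every miR-423-5p library was below every control library, and the spread within each group was small beside the gap. Relative to control the log2 fold change was -1.36 ± 0.107 (SE; edgeR adjusted p = 0.000815), a level 2.57-fold lower. It was the only transcription factor of the 5 called, and it was called in all 15 alternative settings, at log2 fold changes between -1.53 and -1.31.

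Snai1, on chromosome 2 from 167538195 to 167542814, encodes the paralog known as Snail, which binds the same kind of E-box. Its level was 11.2, 8.29 and 10.2 CPM in the miR-423-5p libraries, against 7.36, 6.78 and 6.203 CPM in the controls. The groups did not overlap and the direction was opposite to that of Snai2. The log2 fold change of 0.55 had a 95% interval of 0.18 to 0.91, and the edgeR adjusted p of 0.0524 missed the threshold. With robust dispersion estimates the adjusted p was 0.0471, with DESeq2 0.0237, and without miR-423-5p library 2, the lowest of its group, 0.0190. Leaving out any other library gave an edgeR adjusted p of 0.105 to 0.162, and total-count scaling gave 0.114.

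The paralogs can be set against each other within a library, where the scaling between libraries has no part. Snai2 over Snai1 in FPKM was 0.897, 1.29 and 1.08 in the miR-423-5p libraries, against 3.79, 4.32 and 3.999 in the controls. Snai2 was thus the more abundant of the pair in every control library, while the miR-423-5p libraries lay on both sides of equality. The ratio averaged 1.09 ± 0.197 in miR-423-5p cells and 4.04 ± 0.264 in control cells (SD, n = 3 each; exact permutation test, two-sided, p = 0.1, and 3 libraries against 3 can give no smaller value). The FPKM of Snai2 was lower and that of Snai1 higher in every miR-423-5p library than in any control. This ratio therefore had to separate the groups, and its p adds no support.

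Zeb1 and Zeb2 encode the large zinc finger and homeodomain repressors of the ZEB family. Zeb1, on chromosome 18 from 5591860 to 5775467, had 52.1, 72.3 and 59.0 CPM in the miR-423-5p libraries, against 47.1, 41.3 and 52.0 CPM in the controls. The gap between the groups was narrow, since miR-423-5p library 1 and control library 3 differed by far less than either group's spread, and in FPKM the groups overlapped. The log2 fold change of 0.39 (95% interval 0.06 to 0.71) was not called (edgeR adjusted p = 0.102), and no setting called it. Zeb2, on chromosome 2 from 44983632 to 45117395, had 15.9, 31.2 and 16.6 CPM in the miR-423-5p libraries, against 24.97, 28.2 and 33.2 CPM in the controls. Library 2 of the miR-423-5p group lay among the controls and the other 2 lay below them. The log2 fold change was -0.44 with a 95% interval of -1.05 to 0.17 (edgeR adjusted p = 0.293), and without miR-423-5p library 2 it was -0.81 (adjusted p = 0.0123). Zeb2 over Zeb1 in FPKM was 0.155, 0.219 and 0.143 in the miR-423-5p libraries, against 0.269, 0.347 and 0.324 in the controls, with no overlap (exact permutation test, two-sided, p = 0.1, n = 3 each). An antisense gene, Zeb2os, lies within Zeb2 and held 23 to 31 counts in miR-423-5p libraries and 33 to 53 in controls. These are few beside the counts of Zeb2, which were 980 to 2365 in miR-423-5p libraries and 1694 to 2429 in controls. Gm10125, on the strand opposite to Zeb1, held 15 to 36 counts in miR-423-5p libraries and 4 to 5 in controls. Zeb1 held 3485 to 5479 counts in miR-423-5p libraries and 3008 to 3806 in controls. Apol7d, on the strand opposite to Fn1, held at most 14 counts in any library.

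Twist1, which encodes a basic helix-loop-helix factor of mesoderm, was close to the limit of detection. On chromosome 12 from 33957671 to 33959829 it held 0, 0 and 12 counts in the miR-423-5p libraries, against 27, 40 and 18 counts in the controls. The miR-423-5p libraries were all below the controls, and a count of 0 allows up to 3 counts, which is 0.0430 and 0.0396 CPM in miR-423-5p libraries 1 and 2. The gene was not called (edgeR adjusted p = 0.198), and the fitted log2 fold change of -2.61 had a 95% interval of -5.54 to 0.33. A call came only without miR-423-5p library 3, which holds all the counts of that group (adjusted p = 0.0286).

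**Figure D2:**
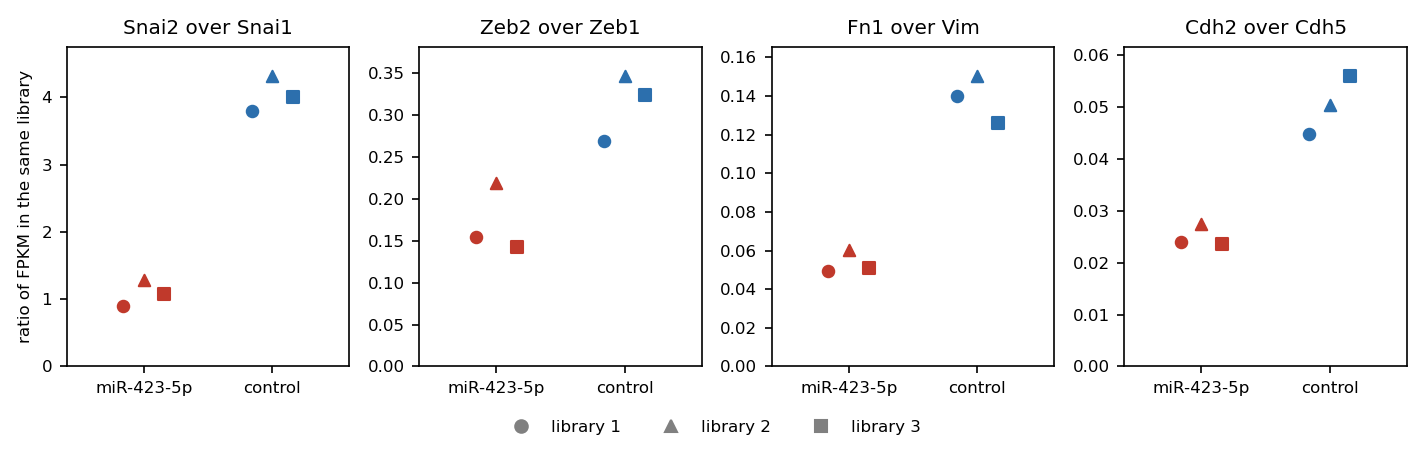
Ratio of 2 genes' FPKM within each library, miR-423-5p on the left and control on the right of each panel, with symbols for the library number. Every miR-423-5p library is below every control library in the 4 panels, with Snai2 over Snai1 at 0.897 to 1.29 in miR-423-5p libraries against 3.79 to 4.32 in controls.

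Among the effectors, Vim was the gene that rose. It lies on chromosome 2 from 13573927 to 13582826 and encodes vimentin, the main intermediate filament protein of endothelial and mesenchymal cells alike. Its level was 3059, 3120 and 2936 CPM in the miR-423-5p libraries, against 1744, 1777 and 1690 CPM in the controls. The groups were far apart, and the log2 fold change was 0.81 ± 0.0760 (SE; edgeR adjusted p = 0.00119), a level 1.75-fold higher. Vimentin reads made up 0.287%, 0.301% and 0.274% of all counts in the miR-423-5p libraries, against 0.183%, 0.187% and 0.180% in the controls. It was called in all 15 alternative settings.

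Acta2, on chromosome 19 from 34241090 to 34255590, encodes smooth muscle actin and is the usual marker of a contractile, myofibroblast-like state. It was a low transcript in these cells, with 141, 81 and 81 counts in the miR-423-5p libraries, against 338, 369 and 464 counts in the controls. These are 2.02, 1.07 and 1.37 CPM in the miR-423-5p libraries, against 4.98, 5.06 and 6.34 CPM in the controls, with no overlap. On the log2 scale the fold change was -1.88 ± 0.273 (SE; edgeR adjusted p = 0.00501), a level 3.67-fold lower. The actin genes are close paralogs, and how reads shared between them were counted is not given in the sources used here. Actb, the cytoplasmic beta actin gene, averaged 1276 FPKM in miR-423-5p cells and 1231 FPKM in control cells and was not called (edgeR adjusted p = 0.114). Acta1 was high in library 3 of both groups, while Acta2 in miR-423-5p library 3 lay between the other 2 libraries of its group. Without control library 3, the highest for Acta2, the log2 fold change was -1.76 (adjusted p = 0.0128).

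The Acta2 promoter is shown because CArG boxes, bound by the serum response factor SRF, are its known control elements and Srf is among the genes tested. The window is from RefSeq (GRCm38.p6, chr19:34255324-34255623, minus strand) and runs from 250 bases before to 50 after the gene start. Capitals mark matches to the CArG box with 1 base of the A and T core replaced by C or G, a looser pattern chosen after the values were seen.
Acta2 promoter: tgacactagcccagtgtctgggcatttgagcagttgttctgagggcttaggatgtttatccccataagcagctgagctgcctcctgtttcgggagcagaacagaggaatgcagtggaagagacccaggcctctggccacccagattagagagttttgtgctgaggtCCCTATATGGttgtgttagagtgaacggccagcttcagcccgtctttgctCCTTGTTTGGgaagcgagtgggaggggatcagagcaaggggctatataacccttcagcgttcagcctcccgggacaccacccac

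The 2 matches begin 84 and 34 bases before the gene start. Such a match is present in 8.49% of 32841 promoter windows, and the exact CArG box, which the Acta2 window lacks, in 1.63%. The E-box CANNTG occurs 3 times in the Acta2 window and in 72.3% of all windows. Its form CAGGTG, searched on both strands, is absent from the Acta2 window, occurs once in that of Snai1 and is present in 20.2% of all windows. Windows were at hand for Acta2, Vim, Zeb2, Snai1 and Twist1, and neither motif was in those of Vim, Zeb2 and Twist1. These are letters in a sequence and say nothing of binding.

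Mmp2, on chromosome 8 from 92827291 to 92853420, encodes a gelatinase that degrades basement membrane collagen. It had 80, 150 and 107 counts in the miR-423-5p libraries, against 444, 413 and 302 counts in the controls. In CPM this is 1.15, 1.98 and 1.81 in the miR-423-5p libraries, against 6.54, 5.67 and 4.13 in the controls, so that the lowest control was above the highest miR-423-5p library. Its log2 fold change was -1.73 ± 0.280 (SE; edgeR adjusted p = 0.00767), a level 3.31-fold lower. The membrane protease MMP14 and the inhibitor TIMP2 act together on the MMP2 proenzyme, and their genes were picked here for that role. Mmp14 averaged 233 ± 12.9 CPM in miR-423-5p cells and 168 ± 17.2 CPM in control cells, and rose 1.38-fold (SD, n = 3 each; edgeR adjusted p = 0.0165). Timp2 averaged 547 ± 29.1 CPM in miR-423-5p cells and 402 ± 66.3 CPM in control cells, and rose 1.36-fold (edgeR adjusted p = 0.0487). In FPKM the groups overlapped for both genes. Mmp14 was at 30.9 to 37.4 FPKM in miR-423-5p libraries and 25.1 to 32.2 FPKM in controls. Timp2 was at 111 to 129 FPKM in miR-423-5p libraries and 88.2 to 118 FPKM in controls.

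Fn1, on chromosome 1 from 71585520 to 71653175, encodes fibronectin, a matrix glycoprotein that cells bind through integrins. Its level was 371, 462 and 368 CPM in the miR-423-5p libraries, against 601, 658 and 524 CPM in the controls, with no overlap. Its log2 fold change was -0.57 ± 0.124 (SE; edgeR adjusted p = 0.0214), a level 1.49-fold lower. This call was lost when miR-423-5p library 1 or 3, or control library 1 or 2, was left out (adjusted p = 0.0816 to 0.0942), and without a filter on low counts (adjusted p = 0.0524). Fn1 over Vim, the ratio of the 2 most abundant members in FPKM, was 0.0492, 0.0601 and 0.0508 in the miR-423-5p libraries, against 0.140, 0.150 and 0.126 in the controls (exact permutation test, two-sided, p = 0.1, n = 3 each).

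Cdh2, on chromosome 18 from 16588877 to 16809246, encodes N-cadherin, which rises in cells that exchange cadherins during the transition. Its level was 49.9, 66.4 and 49.1 CPM in the miR-423-5p libraries, against 69.9, 73.5 and 84.6 CPM in the controls. The miR-423-5p libraries were all lower, and library 2 came close to control library 1. The log2 fold change of -0.46 (95% interval -0.78 to -0.15) missed the threshold (edgeR adjusted p = 0.0569). It passed with total-count scaling (adjusted p = 0.0265), with DESeq2 (0.0152), with limma on FPKM (0.0454 and 0.0416 with pseudocounts of 1 and 0.1) and without miR-423-5p library 2 (0.0109). Leaving out any other library gave an edgeR adjusted p of 0.107 to 0.199. Cdh5, the gene of VE-cadherin, rose 1.45-fold (edgeR adjusted p = 0.00875). Cdh2 over Cdh5 in FPKM was 0.0240, 0.0274 and 0.0237 in the miR-423-5p libraries, against 0.0448, 0.0505 and 0.0560 in the controls, with no overlap (exact permutation test, two-sided, p = 0.1, n = 3 each). The 5 ratios computed, with Acta2 over Actb, all gave this p, and adjusted over the 5 it was 0.1. The pairs were chosen after the values were seen. Fn1 over Vim and Cdh2 over Cdh5, like Snai2 over Snai1, pair a gene lower in every miR-423-5p library with a gene higher in every one. The p of these ratios was thus fixed beforehand and adds no support.

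**Figure D3:**
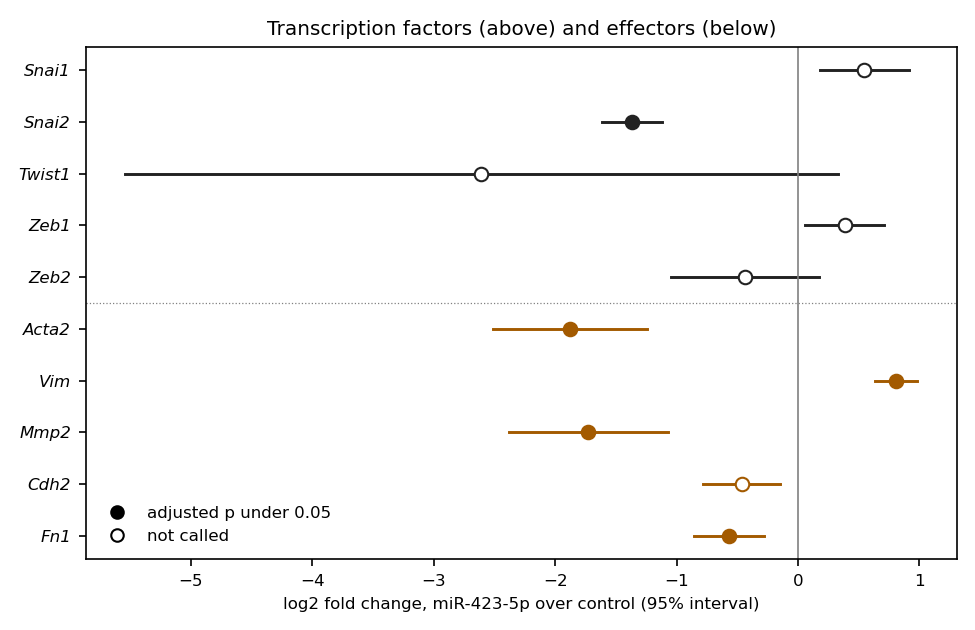
Log2 fold change of miR-423-5p over control for each gene with its 95% interval, transcription factors above the dotted line and effectors below; filled points have an adjusted p under 0.05. Acta2 (-1.88) and Mmp2 (-1.73) are the lowest filled points, and Vim (0.81) is the filled point above 0.

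For each called gene, the 2 genes of the table with the nearest profile over the 6 libraries were found by Euclidean distance between centred log2 CPM, among 10354 genes whose higher group averaged at least 1 FPKM and that had a count in each library. Snai2 lay nearest to Tssk4 and the cyclin E gene Ccne1 (distances 0.237 and 0.239). Acta2 lay nearest to Acsf2 and Sbk1 (0.631 and 0.651), and Mmp2 to the type VI collagen gene Col6a3 and to Ccdc80 (0.487 and 0.547). Vim lay nearest to Wsb2 and Capn5 (0.0696 and 0.0747), and Fn1 to Zfp365 and Casp12 (0.0895 and 0.104).

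Other transcription factors of mesenchymal transition were set beside the 5. Of 20 listed genes, 14 were tested, of which 2 rose, 6 fell and 6 were not called, with a median log2 fold change of -0.49, where 9.09% of all tested genes rose and 7.21% fell. The chromatin protein gene Hmga2 rose 2.09-fold and averaged 734 ± 114 CPM in miR-423-5p cells and 351 ± 27.3 CPM in control cells (SD, n = 3 each; edgeR adjusted p = 0.00240). Sox9 had no counts in any miR-423-5p library, and was at 1.36 ± 0.315 CPM in the controls, at least 30.7-fold lower against 3 counts per library (adjusted p = 0.00168). The homeobox gene Prrx1 averaged 0.510 CPM in miR-423-5p cells and 2.58 CPM in control cells, and the forkhead gene Foxc1 0.137 CPM in miR-423-5p cells and 0.855 CPM in control cells (edgeR adjusted p = 0.00979 and 0.0184). The 6 not tested, Snai3, Twist2, Foxc2, Gsc, Gata4 and Gata6, held at most 19 counts in any library. With a library left out 2 to 7 were called: 2 without control library 2, 3 without control library 1 or miR-423-5p library 1, and 4 without miR-423-5p library 3. In the same order, these fits called 942 of 18777, 1162 of 18983, 1514 of 18961 and 1230 of 19022 tested genes over the whole table. With all libraries it was 2951 of 18103.

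Contractile genes accompany Acta2 in smooth muscle. Of 17 listed genes, 15 were tested, of which 1 rose, 2 fell and 12 were not called, with a median log2 fold change of -0.06; the share called was near the 16.3% of all tested genes. Srf averaged 40.3 ± 1.096 CPM in miR-423-5p cells and 66.8 ± 8.14 CPM in control cells, and fell 1.66-fold (SD, n = 3 each; edgeR adjusted p = 0.00465). The myosin light chain gene Myl9 had no counts in any miR-423-5p library, and was at 0.466 CPM in the controls, at least 10.49-fold lower against 3 counts per library (adjusted p = 0.0114). Cnn2, the gene of a calponin found outside muscle too, rose 1.37-fold (adjusted p = 0.0171). Tagln, another early smooth muscle gene, had 0.286, 0.343 and 0.999 CPM in the miR-423-5p libraries, against 0.722, 1.23 and 1.16 CPM in the controls, and was not called (adjusted p = 0.257). Desmin (Des) and Tpm2 stood high in library 3 of both groups, as Acta1 did. Des had 18.3 CPM in miR-423-5p library 3 and 8.63 CPM in control library 3, and at most 4.91 CPM in the other libraries. With total-count scaling none rose and 3 fell, and leaving out a library gave 1 to 4 calls, the fewest without control library 1. That fit called 1162 of 18983 tested genes over the whole table.

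The matrix and protease genes went both ways. Of 26 listed genes, 25 were tested, of which 8 rose, 11 fell and 6 were not called, with a median log2 fold change of -0.24, against 9.09% higher and 7.21% lower over all tested genes. The integrin beta 3 gene Itgb3, a subunit of receptors for fibronectin and vitronectin, rose 3.50-fold, the matrix protein gene Sparc 2.102-fold and the stromelysin gene Mmp3 5.00-fold (edgeR adjusted p = 0.000657, 0.000815 and 0.000846). The fibrillar collagen gene Col3a1 averaged 1.52 ± 0.176 CPM in miR-423-5p cells and 25.4 ± 11.3 CPM in control cells, and fell 16.7-fold (SD, n = 3 each; adjusted p = 0.00113). Itga5, the alpha subunit of the classical fibronectin receptor, chosen here for that role, had a log2 fold change of 0.02 (adjusted p = 0.871). With total-count scaling 5 rose and 11 fell, and leaving out a library gave 9 to 17 calls: 9 without control library 2, 10 without control library 1 or miR-423-5p library 1, and 11 without miR-423-5p library 3. Calls over all tested genes were fewer in each of these fits as well, as given above.

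Genes of the signals that induce the transition, with receptors and inhibitors among them, were called at about the share of all genes. Of 22 listed genes, 19 were tested, of which 2 rose, 1 fell and 16 were not called, with a median log2 fold change of 0.13, where 16.3% of all tested genes were called. The ligand gene Tgfb1 averaged 132 ± 15.1 CPM in miR-423-5p cells and 84.6 ± 6.18 CPM in control cells, and rose 1.56-fold (SD, n = 3 each; edgeR adjusted p = 0.00736). Acvrl1, the gene of the endothelial receptor ALK1, rose 1.42-fold (adjusted p = 0.0214), and Smad7, the gene of an inhibitor that TGF-beta itself induces, fell 1.397-fold (adjusted p = 0.0321). Without control library 1 or 3, or miR-423-5p library 1 or 3, the list had a single call, and without miR-423-5p library 2 it had 5. In the same order, these fits called 1162, 2018, 1514, 1230 and 4222 genes over the whole table.

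Endothelial identity genes, which the transition lowers, were mostly higher in the cells with the mimic. Of 21 listed genes, 20 were tested, of which 15 rose, none fell and 5 were not called, with a median log2 fold change of 0.75, where 9.09% of all tested genes rose. Nos3, the endothelial nitric oxide synthase gene, rose 2.30-fold, the receptor kinase gene Tie1 1.92-fold, the adhesion gene Pecam1 2.03-fold and the guidance receptor gene Robo4 1.80-fold (edgeR adjusted p = 0.000815, 0.000852, 0.00106 and 0.00196). Of the 6 markers used to check the label, Cdh5, Pecam1, Tek, Tie1 and Kdr were well detected, and Cldn5, the main claudin of the blood-brain barrier, was near 0, at no more than 0.660 CPM in any library. With total-count scaling 13 of the identity genes rose and 1 fell. Leaving out a library gave 10 to 15 calls, the fewest without control library 2. That fit called 942 of 18777 tested genes over the whole table.

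**Figure D4:**
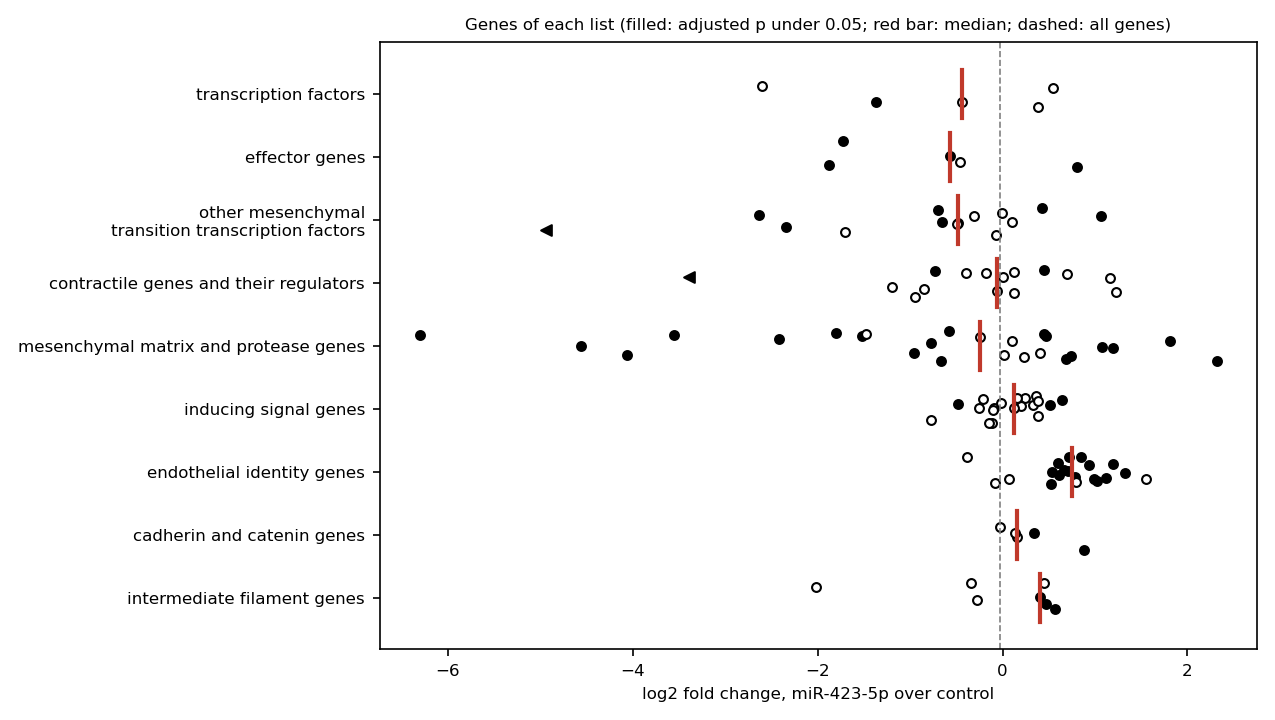
Log2 fold change of miR-423-5p over control for every tested gene of each list; filled points have an adjusted p under 0.05, red bars are list medians, the dashed line is the median of all tested genes, and the arrowheads are the bounds of Sox9 and Myl9 against 3 counts per library. The endothelial identity genes centre on 0.75, and the matrix and protease genes lie on both sides of 0.

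A pair of smaller lists bear on single members. Of 9 other cadherin and catenin genes 5 were tested, of which 2 rose and none fell: Cdh13, the gene of the membrane-anchored T-cadherin, 1.84-fold and the alpha-catenin gene Ctnna1 1.26-fold (edgeR adjusted p = 0.000985 and 0.0380). Over all tested genes 9.09% rose and 7.21% fell. Leaving out any library but miR-423-5p library 2 left 1 call, in fits that called 942 to 2018 genes over the whole table. Cdh1, the gene of E-cadherin and a classical target of SNAI and ZEB repressors, held 0 counts in every miR-423-5p library and at most 15 in a control library. Of 8 genes of intermediate filaments and their partners 7 were tested, of which 3 rose, as Vim did, and none fell, where 9.09% of all tested genes rose. They were the cytolinker gene Plec (1.48-fold), the lamin A gene Lmna (1.39-fold) and the nestin gene Nes (1.33-fold), with edgeR adjusted p of 0.0120, 0.0270 and 0.0292. None of these 7 was called without control library 1 or 2, and 1 was called without miR-423-5p library 1 or 3. Calls over all tested genes were fewer in these fits too, as given above. The direction of calls varied with the method. With total-count scaling 1 rose and 1 fell, and in both limma fits none rose and 1 fell. DESeq2, a replicate block and the fit without miR-423-5p library 2 gave 3 higher and 1 lower. Lmnb1, not called here (edgeR adjusted p = 0.0548), was lower in every miR-423-5p library than in any control.

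Acta2, Mmp2 and Fn1, which fell, and Vim, which rose, are also expressed by pericytes and fibroblasts. Markers of those cells were therefore summed in each library. The 11 markers came to 40.9 to 46.3 CPM in miR-423-5p libraries, against 77.0 to 83.9 CPM in control libraries. Mcam alone, which carries most of that difference, was at 15.0 to 16.9 CPM in miR-423-5p libraries and 35.7 to 44.6 CPM in controls. Of 9 tested 3 fell and none rose, where 7.21% of all tested genes fell: Mcam, which endothelial cells also express, 2.38-fold, the NG2 proteoglycan gene Cspg4 6.33-fold and the lumican gene Lum 49.9-fold (edgeR adjusted p = 0.00134, 0.00315 and 0.0166). The size of the Lum fold is uncertain, with a log2 SE of 1.14. Lum was at 0, 0 and 0.152 CPM in miR-423-5p libraries 1, 2 and 3, against 1.07 to 3.42 CPM in controls. Pdgfra and Pdgfrb were at 4.48 to 9.51 CPM in all libraries and not called (adjusted p = 0.152 and 0.228), while Kcnj8 and Abcc9 held at most 58 counts. Fewer cells of a type and less RNA per cell cannot be told apart in bulk RNA. The part of these cells in the fall of Acta2, Mmp2 and Fn1 and in the rise of Vim was not tested. Other cell types were looked for in the same way. Macrophage markers summed to 706 to 987 CPM in miR-423-5p libraries, against 578 to 824 CPM in controls, and none of 3 tested was called. Cd68 made up nearly all of this, at 705 to 986 CPM in miR-423-5p libraries and 577 to 754 CPM in controls, and outside control library 3 the other 5 markers were each at 1.61 CPM or less. Adgre1, a defining macrophage gene, held 1834 counts in control library 3 and at most 4 elsewhere. Neuron markers summed to 122 to 148 CPM in miR-423-5p libraries, against 41.8 to 100.4 CPM in controls, and 1 of 3 tested, the neurofilament gene Nefl, rose 3.15-fold (edgeR adjusted p = 0.000558). Nefl alone was at 121 to 147 CPM in miR-423-5p libraries and 38.8 to 44.2 CPM in controls, and outside control library 3 the other neuron markers were each at 0.554 CPM or less. Astrocyte markers summed to 12.8 to 14.4 CPM in miR-423-5p libraries, against 10.6 to 25.5 CPM in controls, of which Aldh1l1 alone was at 11.9 to 13.2 CPM in miR-423-5p libraries and 10.1 to 10.998 CPM in controls. Of 6 epithelial markers, Epcam and Esrp1 had no row of that name in the deposited gene table. The other 4 summed to 1.02 to 1.93 CPM in miR-423-5p libraries, against 1.22 to 14.7 CPM in controls. Control library 3 was the highest for the astrocyte and the epithelial list, and none of their tested genes was called. Without control library 3, Vim rose and Snai2, Acta2, Mmp2 and Fn1 fell as with all libraries, at log2 fold changes of 0.79, -1.43, -1.76, -1.89 and -0.65 (edgeR adjusted p = 0.00361, 0.00207, 0.0128, 0.00785 and 0.0197).

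**Figure D5:**
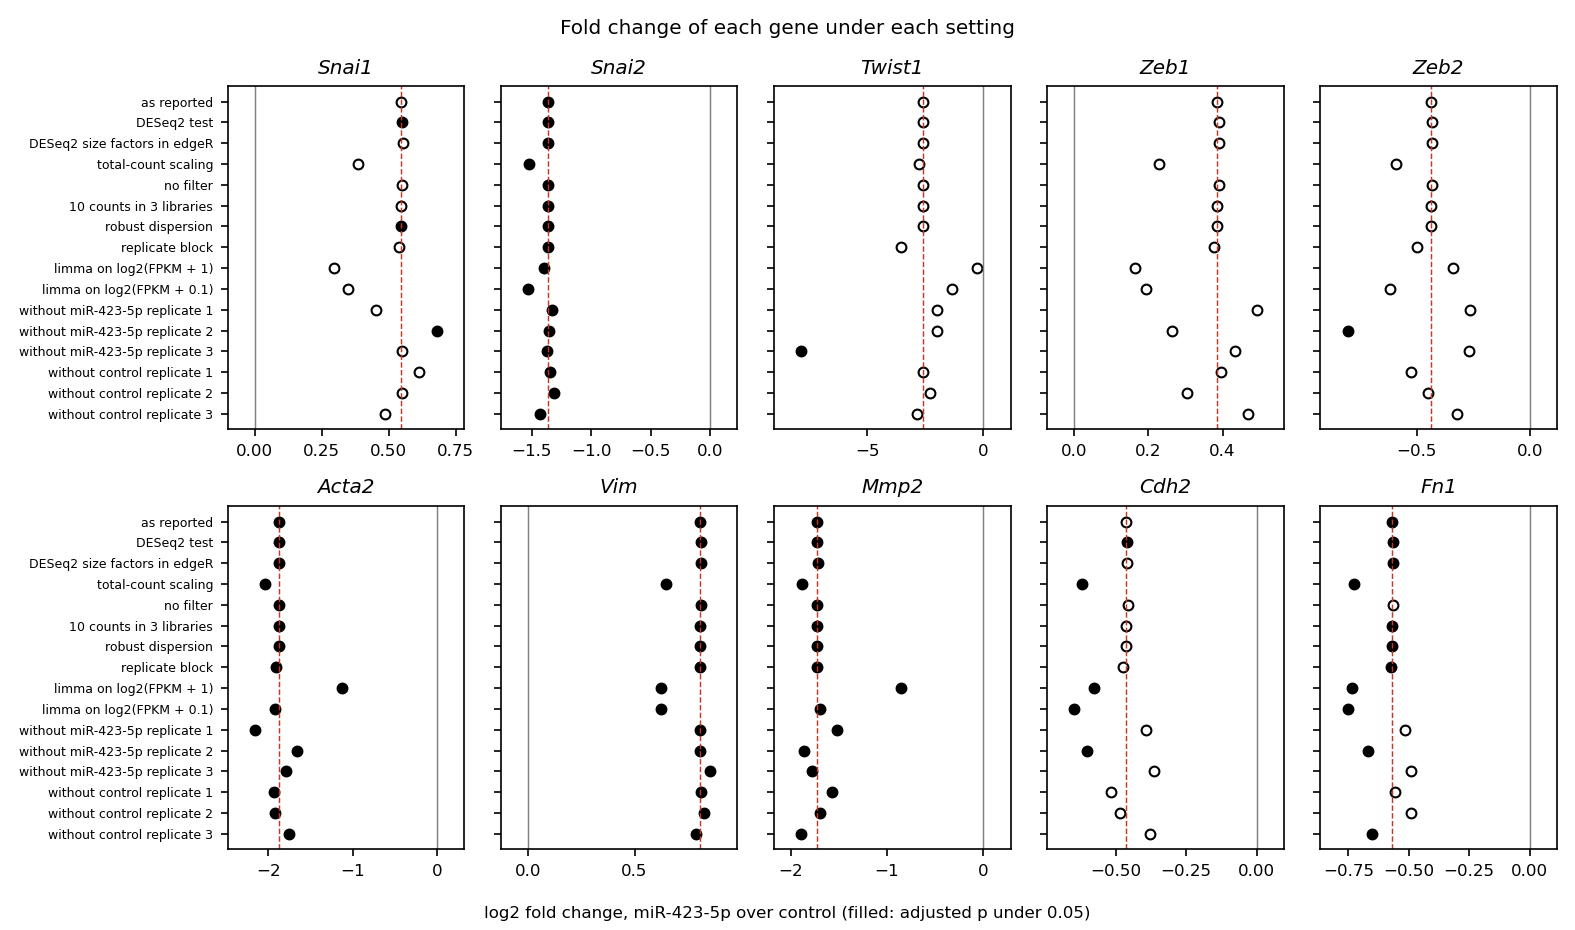
Log2 fold change of miR-423-5p over control for each gene (panels) under the reported fit and 15 alternatives (rows); filled points have an adjusted p under 0.05 and the dashed line is the reported value. Snai2, Acta2, Vim and Mmp2 are filled in every row, and no gene crosses 0 in any row.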

How the data were processed

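RNA-seq of 6 bEnd.3 libraries was deposited as a single table with a whole-number count and an FPKM value per gene and library, per the file headers. The submitters' processing notes list cutadapt 1.9, HISAT2 2.2.1, StringTie 2.1.6, DESeq2, edgeR and the build GRCm38 without their roles. The second cDNA strand was U-labelled, per the labels' protocols, and no source used here gives the counting or strand settings. From the deposited counts, all genes were tested with edgeR 4.0.16 in R 4.3.3 (filterByExpr, TMM, glmQLFit, glmQLFTest on the group alone) with Benjamini-Hochberg adjustment at 0.05. Standard errors were computed by dividing the absolute log2 fold change by the root of the F statistic, and intervals are unadjusted. No pair of libraries of a group agreed within sampling noise (chi-square per degree of freedom 18.2 or more). The test was checked on simulated counts.

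Alternatives were DESeq2 1.42.0, other scalings, filters and dispersions, a replicate block, limma 3.58.1 on log2(FPKM + 1) and log2(FPKM + 0.1) for genes with 0.1 FPKM or more in either group, and leaving out each library. Named genes are the 10 members, up to 4 called genes per list by smallest p and the 2 genes nearest to each called member. A few others are named for a known role, for overlap with a member, for a high level in 1 library or as not called. Members and lists were chosen with earlier results of these data known, and the ratios, the CArG-like pattern, Itga5, Mmp14, Timp2, Tagln and the actins after their values were seen. The limit for a count of 0 covers counting error only. Seed matches used the longest GENCODE M21 3′ UTR of 30 bases or more per gene (Python 3.11.15); promoters are from RefSeq.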

Additional observations from a re-analysis of the deposited data

How the results depend on the processing

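Snai2, Acta2, Vim and Mmp2 kept direction and call in all 15 alternatives, and no member changed sign in any. Fn1 lost its call in 5, Cdh2 gained one in 5, Snai1 in 3, and Twist1 and Zeb2 in 1 each. The 5 members called were 4 to 8 with a library left out (transcription factors 1 to 3, effectors 3 to 5), the fewest without miR-423-5p library 1 or control library 1 or 2 and the most without miR-423-5p library 2. Over all genes 2951 were called, and 942 (without control library 2) to 4222 (without miR-423-5p library 2) with a library left out. With a library left out the other lists gave 2 to 7 (other transcription factors), 1 to 4 (contractile), 9 to 17 (matrix), 1 to 5 (inducing signals), 10 to 15 (endothelial), 1 to 3 (cadherins) and 0 to 4 (intermediate filaments). The transcription factors called were 2 with DESeq2 and with robust dispersion. With no filter 1852 genes were called, with 5 other transcription factors, 1 cadherin gene and 1 intermediate filament gene. Cadherin calls were 1 with total-count scaling. Limma on log2(FPKM + 1) called 5 other transcription factors, 12 matrix genes, 1 cadherin gene and 1 intermediate filament gene. On log2(FPKM + 0.1) it called 5 other transcription factors, 1 cadherin gene and 1 intermediate filament gene. The intermediate filament call was a fall in both. The pseudocount of 1 brought the log2 fold changes of Acta2 and Mmp2 to -1.13 and -0.86, and limma gave 708 genes higher and 2130 lower. The causes were not tested.

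Same-numbered libraries deviated together at correlations of 0.0749, -0.0264 and 0.0498, so the numbers were not taken to pair them, although Acta1, Des, Tpm2 and Abcc9 were higher in library 3 of both groups than in the other 4 libraries. With a replicate block 2411 genes and 5 members were called, and 1 cadherin gene. Twist1, Acta2, Mmp2, Lum and several transcription factors rest on low counts, which limits their folds, and 3 libraries a group limit all calls.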
